A study of Saccharomyces cerevisiae with 12 samples.

Results

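The response of *S. cerevisiae* cells to SO2 was compared between 2 strains, the parental strain BY4741 and the mutant *com2*Δ, which lacks the transcription factor gene *COM2*. The quantity described is the interaction of strain and treatment, that is, the log2 change with SO2 in *com2*Δ minus the log2 change with SO2 in BY4741. It was obtained for all 5716 probe sets of the deposited table from all 12 arrays of the series. Both strains are MATa and carry leu2-delta-0, ura3-delta-0 and met15-delta-0 together with his3-delta-1, and the mutant has in addition the deletion of *COM2* and comes, per the methods, from the Euroscarf collection, so that 1 deletion strain stands for the loss of the gene. Cells growing exponentially in a minimal glucose medium at pH 3.5, with ammonium sulfate as nitrogen source and with methionine, leucine, histidine and uracil added, were moved into fresh medium with 0 or 0.5 mM SO2 and harvested after 60 min. Each of the 4 groups (BY4741 control, BY4741 with SO2, *com2*Δ control and *com2*Δ with SO2) was measured on 3 Affymetrix Yeast Genome 2.0 arrays labelled as biological replicates.

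SO2 is used to preserve wine. At low pH it enters yeast cells mostly in its uncharged form and dissociates inside to sulfite, which is also an intermediate of sulfur metabolism: sulfate is taken up, activated and reduced to sulfite, and sulfite reductase turns sulfite into sulfide, which is built into homocysteine. BY4741, which carries met15-delta-0, is auxotrophic for methionine per the study, so it depended on the methionine added to the medium. The genes of this pathway are driven by Met4, an activator that is brought to promoters by Cbf1, Met31 and Met32 and is held back by the ubiquitin ligase subunit Met30. Com2 is a zinc finger protein related to Msn2 and Msn4, the activators of the general stress response. An interaction below 0 means that the change with SO2 was lower in *com2*Δ than in BY4741 ("downward"), and an interaction above 0 that it was higher ("upward"). Neither sign says by itself which strain changed, so the response of each strain is given beside it.

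The arrays bore out the strain labels for *COM2*, *LEU2*, *MET17* and *URA3*. *COM2* had intensities of 3558, 3679.9 and 2858 in BY4741 controls and 2752, 2368 and 2496 in BY4741 with SO2, against 9.3 to 20.3 on the 6 *com2*Δ arrays. The deleted genes *LEU2*, *MET17* (the current name of MET15) and *URA3* reached at most 152.5 on any array, and this value serves below as a measure of background. It is a reading of *LEU2* (71.6 to 152.5), and *MET17* (5.4 to 17.8) and *URA3* (8.9 to 39.4) were dimmer. A value under 152.5 can thus lie above those of *MET17* and *URA3*. *HIS3*, the gene of his3-delta-1, read 5517 to 20483 and is not part of this measure. Defining genes of **a** cells were bright (*MFA1* 10351 to 21223), and the α pheromone gene *MF(ALPHA)1* stayed between 19.6 and 63.9. The other genes of α cells were brighter: *SAG1* read 442 to 2209, *STE3* 166 to 1084 and *MF(ALPHA)2* 65.7 to 228. Array medians ran from 1673 to 1868. The arrays farthest from their replicates were replicate 3 of both control groups and replicate 2 of both SO2 groups. Without these 4 arrays 1424 probe sets had a called interaction, and leaving out any single array gave 914 to 1101.

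The interaction was called for 997 of the 5716 probe sets (17.4%), of which 528 were downward (9.24% of all) and 469 upward (8.21%). Calls came from limma's moderated test over all probe sets, at a false discovery rate under 10% and an unadjusted p under 0.05, and needed responses that differed by 2-fold or more. The median interaction over all probe sets was 0.01, and the median standard error 0.20, so that the 95% interval of an interaction typically reached 0.44 to either side. Among the called probe sets 40 differed at least 8-fold between the strains in their response (21 upward and 19 downward), and 181 at least 4-fold. The 9 differences between SO2 and control arrays of *com2*Δ lay wholly beyond the 9 of BY4741 in 471 of the 528 downward and 404 of the 469 upward calls. Over all probe sets this was so for 39.4% (20.5% downward and 18.9% upward).

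**Figure D1:**
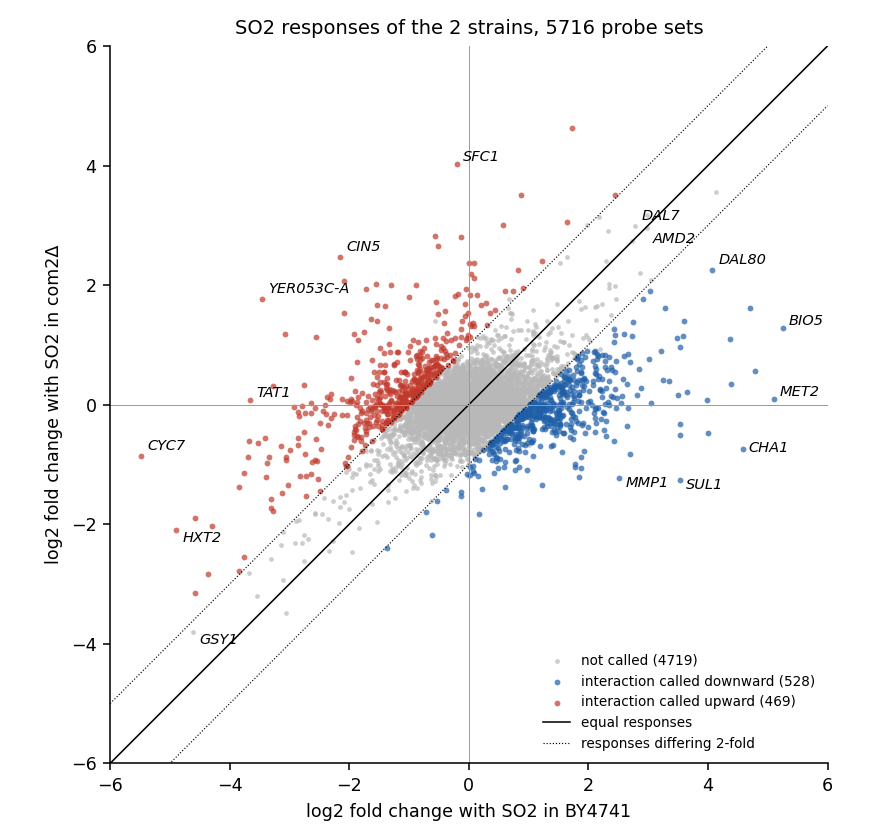
Log2 fold change with SO2 in BY4741 (horizontal axis) and in *com2*Δ (vertical axis) for 5716 probe sets, each a mean over 3 arrays against 3, with the 528 downward interactions in blue, the 469 upward ones in red and equal responses on the solid line. Most coloured points stretch along the horizontal axis, while *SFC1* and *CIN5* stand high on the vertical one.

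The largest share of the interaction came from changes that were called in BY4741 and not in *com2*Δ. Of the 528 downward probe sets, 349 (66.1%) rose in BY4741 alone, with a median log2 change of 1.57 in BY4741 and 0.02 in *com2*Δ. Of the 469 upward ones, 241 (51.4%) fell in BY4741 alone, with medians of -1.48 and -0.03. These counts divide the interaction calls by calls from the same arrays and are a description only. Changes in the mutant made up a smaller part: 53 upward probe sets rose in *com2*Δ alone and 22 downward ones fell in *com2*Δ alone. The strains changed in opposite directions, with both changes called, in 18 probe sets that fell in BY4741 and rose in *com2*Δ and in 6 that rose in BY4741 and fell in *com2*Δ. Both strains rose, with the smaller change in *com2*Δ, in 16 probe sets and both fell, again less in *com2*Δ, in 23. In 264 probe sets neither response reached the call by itself while their difference did.

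Read from the single strains, 597 probe sets rose with SO2 in BY4741 (10.4%) and 371 of these had a downward interaction, 4 an upward one and 222 none that was called. For the 480 that fell in BY4741 (8.4%) the corresponding numbers were 282 upward, 1 downward and 197 not called. In *com2*Δ 334 responses were called (5.84%), against 1077 in BY4741 (18.8%), and 178 rose (3.11%) and 156 fell (2.73%). Of the 178, 75 had an upward interaction, and of the 156, 29 had a downward one. The strains were much alike before the treatment: 511 of the 528 downward and 449 of the 469 upward probe sets differed by less than 2-fold between the control groups. Their median absolute log2 difference between the strains was 0.18 (downward) and 0.22 (upward) without SO2 and 1.33 and 1.30 with SO2, against 0.13 and 0.49 over all probe sets. A called difference between the control groups was present in 16 of the downward and 11 of the upward probe sets. Over all 5716 probe sets it was present in 42, and 5656 differed by less than 2-fold. Control differences were thus more frequent among the called probe sets than among all. The interaction contains the control difference, however, so that a choice by the interaction favours such probe sets, and these counts are a description only. Among the sulfur and biotin genes described below, *SUL1* and *BIO5* were lower in the *com2*Δ controls than in BY4741 (log2 differences of -2.22 and -1.41), and *SAM1*, *SAM2*, *MET13*, *OPT1* and *MET6* were higher there (1.99, 1.52, 1.48, 1.35 and 1.27).

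All 10 genes for the uptake of sulfate and its reduction to sulfide had a called downward interaction, with a median of -3.65. The median response of these genes was 3.53 in BY4741 and -0.13 in *com2*Δ, all 10 rose in BY4741, and *SUL1* and *MET14* fell in the mutant. In BY4741 the high affinity sulfate permease *SUL1* read 1039.9, 949 and 1379 on the control arrays and 11839, 13068 and 13596 with SO2, while in *com2*Δ it read 277, 221 and 217 without and 112, 70.0 and 124 with SO2. The SO2 arrays of the mutant thus lay below its own controls and below the background of the deleted genes, whereas those of BY4741 lay above all others. The interaction of *SUL1* was -4.79 (SE 0.29, adjusted p 1.9e-06, limma), a 27.6-fold difference between the responses. With intensities under 152.5 raised to that value it was -4.17. *SUL2*, the second sulfate permease, rose by 4.39 on the log2 scale in BY4741 and had a log2 change of 0.34 in *com2*Δ (interaction -4.05).

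Sulfite reductase showed the same contrast at high intensities. Its β subunit gene *MET5* had 1470.0, 1571 and 2077 in the BY4741 controls and 19594, 19296 and 19909 with SO2, and in *com2*Δ 1631, 1591 and 1370.2 without and 1054, 1048 and 1104 with SO2. The strains overlapped without SO2 and did not overlap with it, and the interaction was -4.05 (SE 0.18, adjusted p 2.5e-07). The α subunit gene *MET10* had an interaction of -3.87. The enzymes that prepare sulfate for reduction, ATP sulfurylase (*MET3*), APS kinase (*MET14*) and PAPS reductase (*MET16*), had interactions of -3.44, -2.83 and -3.35. Those for siroheme, the cofactor of sulfite reductase, were -3.92 for *MET1* and -2.69 for *MET8*. *MET22*, a phosphatase that removes the nucleotide by-product of PAPS reduction, had the smallest of the 10 interactions (-1.46). The study singled out several of these genes from the same arrays, so their direction is not independent evidence. All 10 were called whichever array was left out.

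Genes for methionine, cysteine and S-adenosylmethionine synthesis split into a part with large interactions and a part without. Of 17 measured, 9 were called, all downward, and the median was -1.22. *MET2*, the acetyltransferase that activates homoserine for sulfide, had 166, 166 and 238 in the BY4741 controls and 6873, 5299.9 and 7213 with SO2, and 82.8, 89.7 and 152 and then 138, 86.8 and 116 in *com2*Δ. All 6 arrays of the mutant lay below the background of the deleted genes, and the interaction was -5.00 (SE 0.35, adjusted p 4.3e-06), or -5.10 with the floor at that background. *MET13*, a methylenetetrahydrofolate reductase, and *STR3*, the cystathionine β-lyase, had interactions of -4.49 and -4.23. The S-adenosylmethionine synthetases *SAM2* and *SAM1*, whose sequences are nearly identical so that their probe sets may share signal, had -2.83 and -2.45. In *SAM1*, however, the *com2*Δ controls (8745 to 9405) already lay near the BY4741 arrays with SO2 (9505 to 11284), and the BY4741 controls read 1588 to 4071. *MET6*, the methionine synthase, had -2.07, *CYS3*, the cystathionine γ-lyase, -1.54 the homocysteine methyltransferase *MHT1* -2.35 and *STR2*, the cystathionine γ-synthase, -1.22. By contrast *HOM3*, *CYS4*, *HOM2*, *HOM6*, *SAH1*, *SAM4*, *MET12* and *MET7* did not pass, and *MET7* had the lone positive interaction of the list (0.35).

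Within the Met4 system, 4 of 6 genes had a downward and 1 an upward interaction. The downward count was 3 in some settings, among them median centring and the omission of BY4741 control replicate 1. *MET28*, a cofactor of Met4, had 309, 432 and 386 in the BY4741 controls, 8003, 6399 and 8784 with SO2, and in *com2*Δ 221, 502 and 473 without and 981, 533 and 971 with SO2. It rose in both strains, and the response was 9.66-fold smaller in *com2*Δ (interaction -3.27, SE 0.45, adjusted p 2.6e-04). *MET32* rose by 3.04 on the log2 scale in BY4741 alone and had an interaction of -3.02. *MET4* itself and *MET30* had interactions of -1.03 and -1.34. *MET31*, the relative of *MET32*, went the other way: 1252, 1203 and 1067 became 569.9, 707 and 545 in BY4741, and 1328, 1329 and 1511 became 1875, 1549 and 1609.5 in *com2*Δ, which gave an interaction of 1.23 (SE 0.17, adjusted p 3.2e-04). *CBF1* was not called, with log2 changes of 0.05 and 0.27.

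**Figure D2:**
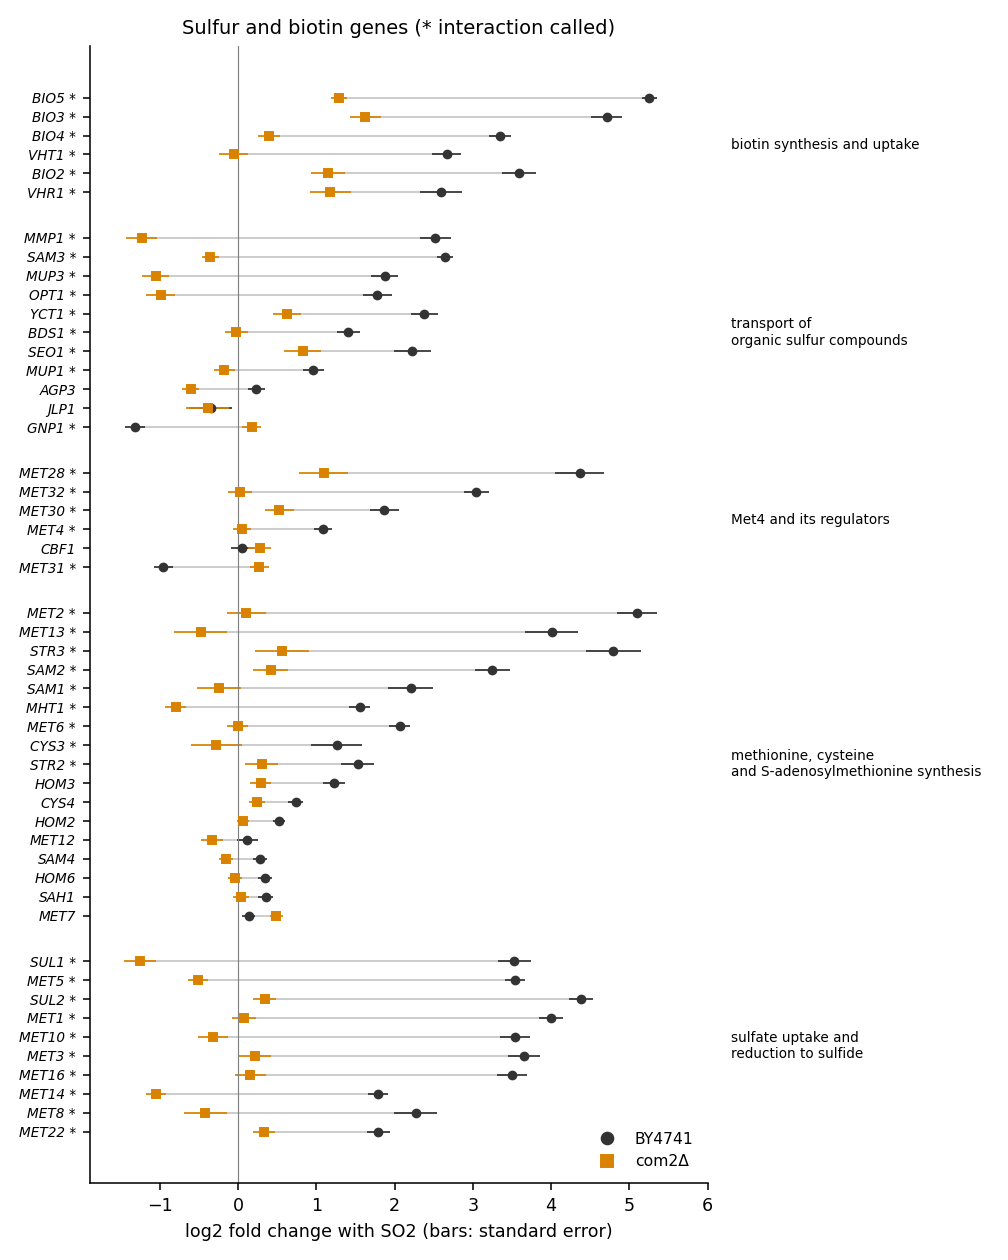
Log2 fold change with SO2 in BY4741 (circles) and *com2*Δ (squares), with standard errors, for the genes of 5 lists of sulfur and biotin metabolism, ordered by interaction within each list. All 10 sulfate genes and all 6 biotin genes have a called interaction, and *MET31* and *GNP1* are the called genes in which *com2*Δ lies to the right.

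Permeases for organic sulfur compounds were downward in 8 of 11 genes, with a median of -1.43. *MMP1*, which takes up S-methylmethionine, rose from 235, 254 and 281 to 1248, 2029 and 1246 in BY4741 and fell from 472, 365 and 371 to 147, 205 and 163 in *com2*Δ. The control arrays of *com2*Δ lay above those of BY4741 and its SO2 arrays below all others, and the interaction was -3.75 (SE 0.28, adjusted p 5.9e-06). The methionine permease *MUP3* also changed in opposite directions, by 1.87 and -1.06 (interaction -2.93). *SAM3*, for S-adenosylmethionine, had -3.00, *OPT1*, a carrier of glutathione and peptides, -2.77, *YCT1*, for cysteine, -1.75 and the high affinity methionine permease *MUP1* -1.14. *GNP1*, a broad permease whose best known substrate is glutamine, was the upward member (1.49): it fell in BY4741 alone.

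All 6 biotin genes had a downward interaction, and 4 of them rose in both strains. Their median responses were 3.47 in BY4741 and 1.16 in *com2*Δ, and the median interaction was -2.84. *BIO5*, which takes up a precursor of biotin, had 348, 399.9 and 365 in the BY4741 controls and 12870.2, 15877 and 13879 with SO2, and 132, 142 and 143 and then 348, 355 and 318 in *com2*Δ. The mutant with SO2 thus reached the level of BY4741 without it, and the interaction was -3.97 (SE 0.14, adjusted p 5.9e-08). *BIO3*, *BIO4* and *BIO2*, which code for the enzymes of the last steps of biotin synthesis, had interactions of -3.09, -2.95 and -2.44. *BIO4* and *VHT1*, the biotin permease, rose in BY4741 alone. *VHT1* went from 2713, 4093 and 4057 to 22342, 22769.5 and 22646 in BY4741 and stayed at 4128 to 4705 with SO2 in *com2*Δ, against 3544 to 5707 without (interaction -2.72). Its activator *VHR1* had -1.41.

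Downward calls also occurred in the synthesis of amino acids with no sulfur, with smaller ratios. The called numbers were 6 of 9 for lysine (median -1.35), 5 of 8 for arginine (-1.10), 9 of 11 for branched-chain amino acids (-1.11), 4 of 13 for aromatic amino acids (-0.80) and 2 of 6 for histidine (-0.65), and none of these 5 lists had an upward call. Lysine and arginine genes were named by the study from these arrays. The lowest values were those of the branched-chain aminotransferase *BAT1* and of *ARG3*, the ornithine carbamoyltransferase (both -2.36), and, in the lysine pathway, of the saccharopine dehydrogenase *LYS1* and the homoaconitase *LYS4* (both -1.95). *ARG3* had 2285, 3761 and 6057 in the BY4741 controls, 22065, 18575 and 21780.3 with SO2, and in *com2*Δ 3373, 5911 and 5412 without and 5267, 4708 and 5520.3 with SO2. The groups without SO2 overlapped and those with SO2 did not (SE 0.42, adjusted p 1.3e-03), but the BY4741 controls were themselves spread widely. *LYS1* and *BAT1* had the same order in the BY4741 controls, replicate 1 lowest and replicate 3 highest. Replicate 1 was the lowest BY4741 control in 277 and replicate 3 the highest in 274 of all 528 downward probe sets. In the 469 upward ones replicate 3 was the lowest in 260 and replicate 1 the highest in 188. These orders were not counted over all probe sets, and the calls themselves use the same control values. Without BY4741 control replicate 1 the branched-chain count was 5 of 11 instead of 9, and the lysine and arginine counts were 6 and 4. Over the omissions of any 1 array the lysine count ran from 5 to 8 and the arginine count from 4 to 7. The part of BY4741 control replicate 1 in the result was not tested further.

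Serine, glycine and folate genes went both ways. *SER3* and *SER33* code for the 2 isoforms of phosphoglycerate dehydrogenase, which starts serine synthesis. *SER33* rose by 1.82 on the log2 scale in BY4741 with an interaction of -1.75, and *SER3* fell by 1.42 in BY4741 with an interaction of 2.28. In *SER3* the intensities were 10569, 10089.8 and 11534 and then 3976, 3748 and 4319 in BY4741, against 9336, 9151 and 9328 and then 19197, 14231 and 17429 in *com2*Δ, with no overlap between the SO2 groups. *CHA1*, the deaminase that breaks down serine and threonine, had the lowest interaction of all probe sets (-5.32, SE 0.33, adjusted p 2.0e-06). It went from 203, 262 and 422 to 7341, 5512 and 7605 in BY4741 and from 206, 228 and 193 to 113, 151 and 113 in *com2*Δ. Only the BY4741 arrays with SO2 stood far apart, and with the floor at 152.5 the interaction was -5.03.

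Genes for allantoin use and other poor nitrogen sources responded in both strains. Of 26 measured, 17 rose in BY4741 and 13 in *com2*Δ, while the interaction was downward in 6 (23.1%, against 9.24% of all probe sets) and upward in 2 (7.69%, against 8.21%), with a median of -0.51. The GATA factor genes *GAT1*, *DAL80* and *GLN3* were downward (-2.20, -1.81 and -1.59). *AMD2*, coding for a putative amidase, was the like response of largest size: 1251, 1519 and 1531 rose to 10857, 10086 and 12843 in BY4741, and 1064, 1503 and 1101 rose to 10353, 7769 and 10335 in *com2*Δ. Its log2 changes were 2.97 and 2.96, and the 95% interval of the interaction ran from -0.53 to 0.50. *DAL7*, a malate synthase gene of allantoin breakdown, rose by 2.78 and 2.99 (interval of the interaction -0.34 to 0.75), and the ammonium permease *MEP2* by 2.35 and 2.01. *DCG1*, which lies in the cluster of *DAL* genes, rose more in the mutant (1.64 in BY4741 and 3.05 in *com2*Δ, interaction 1.42).

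Downward calls were also found among genes expressed late in the cell cycle and genes of the mating response. Of 21 genes of G2, mitosis and its exit, 12 were downward and 0 upward (9 not called), with a median response of 1.62 in BY4741 and 0.21 in *com2*Δ (median interaction -1.29). *DBF2*, a kinase of mitotic exit, had 1019, 1008 and 1230.3 in the BY4741 controls, 4223, 4486 and 5058 with SO2, and in *com2*Δ 1347, 1467 and 1573 without and 1736, 1897 and 2114 with SO2. The groups with SO2 were clearly apart (interaction -1.69, SE 0.17, adjusted p 3.2e-05). The polo kinase gene *CDC5*, the activator gene *CDC20* of the anaphase promoting complex and the transcription factor gene *SWI5* had interactions of -1.43, -1.54 and -1.61, and the cyclin gene *CLB2* -1.31. In these populations a larger share of cells in a phase and more RNA per cell cannot be told apart. Among 37 genes of the G1/S transition and DNA replication, 4 were downward (10.8%) and 3 upward (8.11%), close to the 9.24% and 8.21% of all probe sets, and the upward number ran from 0 to 7 over the settings tried. The downward genes include the G1 cyclin genes *PCL1* (-2.70) and *CLN1* (-1.41). The 9 histone genes had 0 calls and a median of -0.38, and 1 of 11 daughter separation genes, *ASH1*, was called.

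Of 24 pheromone response genes 9 were downward (37.5%), 1, *STE3*, was upward, and the others were not called. *AGA1*, the anchor of the **a** agglutinin, had 1168, 1118 and 1443 and with SO2 6034, 6598 and 7465 in BY4741, against 1727, 1187 and 1064 and then 716, 1064 and 798 in *com2*Δ (interaction -3.05, SE 0.28, adjusted p 2.3e-05). Its partner *AGA2* had -2.51, the mating arrest factor *FAR1* and the G protein regulator *SST2* had -2.22 each, and the protease gene *BAR1* -1.84. The α factor receptor *STE2*, a gene of **a** cells, had -1.02. *STE3*, the receptor gene of α cells, had 607, 705 and 841 and then 173, 243 and 166 in BY4741, against 696, 708 and 873 and then 809, 1084 and 784 in *com2*Δ (interaction 2.12). Summed over 7 genes of **a** cells, intensities were 52863 to 64579 and then 105503 to 114405 in BY4741 and 56639 to 70630.0 and then 52314 to 53498 in *com2*Δ. The sum over 4 genes of α cells was 1514 to 1836 and then 2020.0 to 2583 in BY4741 and 1605 to 1727 and then 1508 to 1748 in *com2*Δ, with *SAG1* downward (-1.89) and *MF(ALPHA)2* upward (1.11).

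**Figure D3:**
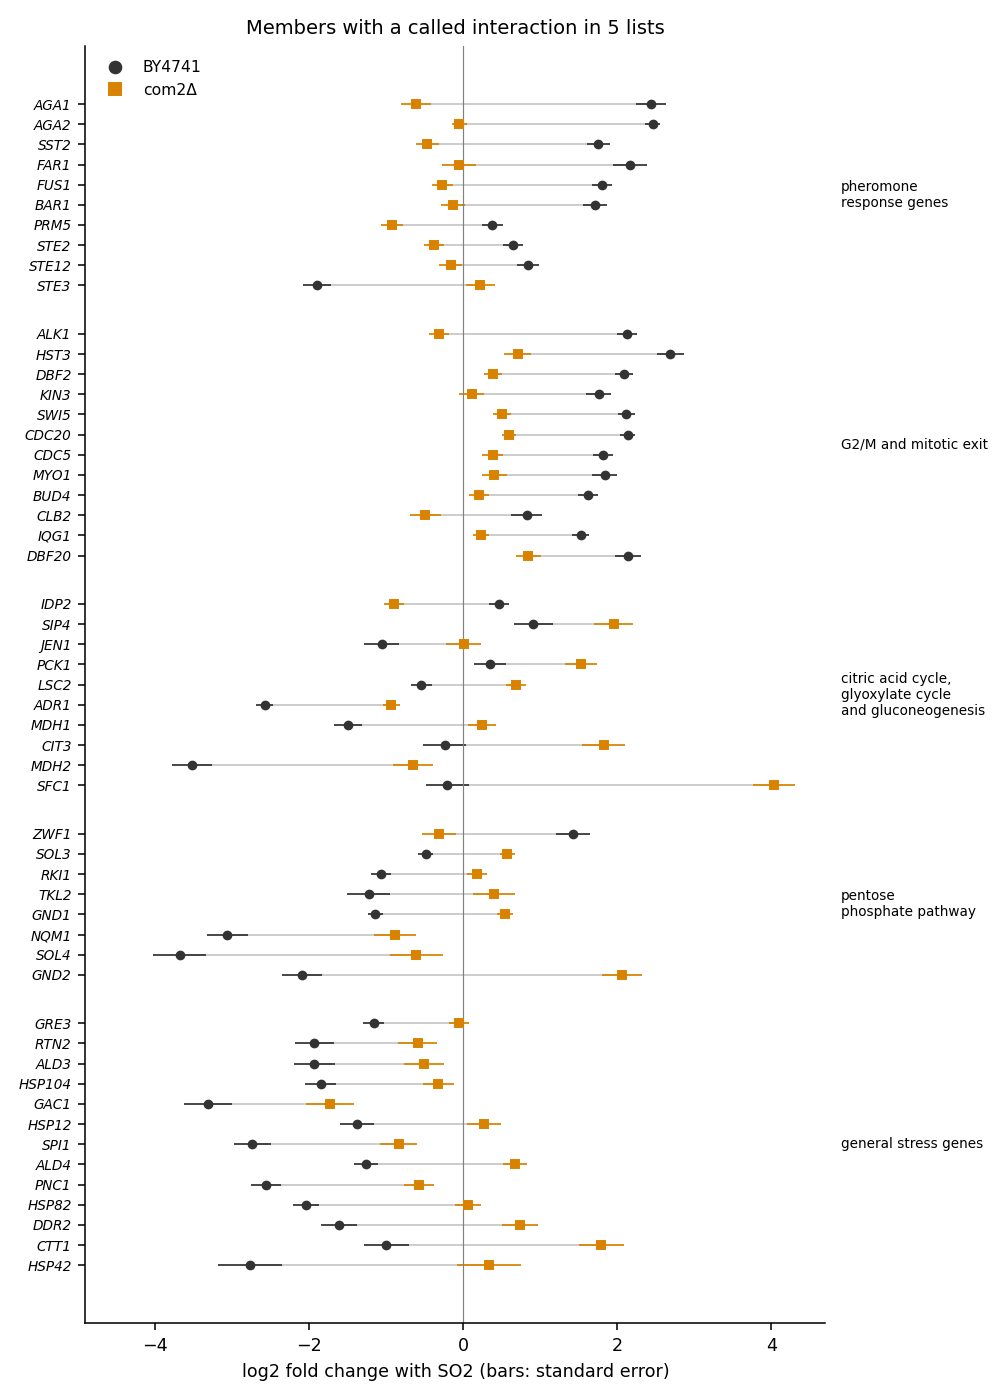
Log2 fold change with SO2 in BY4741 (circles) and *com2*Δ (squares), with standard errors, for the members of 5 lists that had a called interaction (*COM2* left out), so that the distance between the symbols is what chose them. BY4741 lies to the left in the stress, carbon and pentose phosphate genes except *ZWF1* and *IDP2*, and to the right in the mitotic and pheromone genes except *STE3*.

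Cell wall genes were mostly below 0 in the interaction: 32 of 34 had a negative value (median -0.62, against 0.01 over all probe sets). Of the 34, 8 were called downward (23.5%, against 9.24% of all probe sets) and 1 upward (2.94%, against 8.21%). The upward member was the mannoprotein gene *CWP1* (1.96). The wall sensors *WSC2* and *WSC4* and the septum chitin synthase *CHS2* had -1.94, -1.89 and -1.74. In *PIR3*, *CHS3*, *CRH1* and *RLM1* the log2 changes were -1.19, -1.03, -0.58 and -0.78 in *com2*Δ and between 0.07 and 0.64 in BY4741. *MSB2*, a signalling mucin, and *KDX1*, a protein kinase homologue, which are not on this list, had a called interaction with neither response called. *MSB2* went from 3049, 3065 and 2927 to 5493, 6826 and 5109 in BY4741 and from 4374, 3761 and 3473 to 1746, 2866 and 2203 in *com2*Δ, so that the groups moved apart in both directions (log2 changes 0.94 and -0.79, interaction -1.73, SE 0.24, adjusted p 3.0e-04).

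Redox and detoxification genes were split. Of 29 genes of thiol redox and antioxidant defence, 3 were downward (10.3%, close to the 9.24% of all probe sets) and 6 upward (20.7%, against 8.21%). The methionine sulfoxide reductase *MXR1* rose from 1536, 1425 and 1274 to 6363, 7384 and 7061 in BY4741 and had 2236, 2046 and 2572 without and 1549, 1650.3 and 1539 with SO2 in *com2*Δ (interaction -2.82, SE 0.15, adjusted p 8.3e-07). *GRX4*, a monothiol glutaredoxin, had -2.42. *GSH1*, which makes the first step of glutathione synthesis, went from 2096, 2486 and 2916 to 4395, 3852 and 4541 in BY4741, short of a call, and fell from 2948, 2752 and 2307 to 1053, 1258 and 1465 in *com2*Δ (interaction -1.87, SE 0.22, adjusted p 1.1e-04). The catalase *CTT1* had the highest value of this list (2.79). Among 18 weak acid genes, *PDR12*, the pump of carboxylate anions, and its activator *WAR1* were downward (-2.65 and -1.75, 11.1% of the list), and *HSP30*, *YRO2*, *SPI1* and YLR297W upward (22.2%). *SSU1*, the sulfite pump, had 8433 to 10624 and then 11280.3 to 14255 in BY4741 and 8581 to 10350.0 and then 9459.9 to 13524 in *com2*Δ, an interaction of -0.06 with an interval from -0.53 to 0.41. *ATG1*, the kinase that starts autophagy, changed in opposite directions, from 1418, 1819 and 1360.0 to 5275, 5469 and 5681 in BY4741 and from 968, 1365 and 1028 to 478, 351 and 659 in *com2*Δ (interaction -3.06, SE 0.30, adjusted p 3.2e-05).

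On the upward side 10 of the 15 highest interactions belonged to genes that fell in BY4741 and rose in *com2*Δ, while *CYC7*, *TAT1* and *HSP30* fell in BY4741 alone and *SFC1* and YER187W rose in *com2*Δ alone. YER053C-A, a small open reading frame, had the highest value (5.21, SE 0.67, adjusted p 1.8e-04): 2151, 4555 and 2215 and then 201, 405 and 203 in BY4741, and 911, 2443 and 3256 and then 7792, 4593 and 7878 in *com2*Δ. *CIN5*, coding for a leucine zipper factor related to Yap1, had 373, 523 and 705 and then 119, 98.3 and 133 in BY4741, against 417, 519 and 531 and then 3311, 1603 and 3649 in *com2*Δ. The control groups overlapped, and with SO2 the lowest mutant array was above every BY4741 array (interaction 4.62, SE 0.42, adjusted p 2.3e-05). *FMP48* had 862, 1244 and 1513 and then 124, 138 and 158 in BY4741 and 1167, 1292 and 1409 and then 3008, 2415 and 3423 in *com2*Δ (interaction 4.26). The cytosolic acetaldehyde dehydrogenase *ALD6* behaved alike at far higher intensity, 11882, 9747 and 13095 and then 2147, 1759 and 1962 in BY4741 and 9423, 7980.0 and 7055 and then 19018, 15957 and 18099.8 in *com2*Δ (interaction 3.68, SE 0.20, adjusted p 8.3e-07). Among the 15 highest, *SPR3*, *SDD1*, *IZH4*, YDR248C and *GOR1*, also changed in opposite directions, with interactions of 3.20 to 3.65. *SPR3*, a septin of sporulating cells, and *SDD1* were dim, and with the floor at 152.5 their interactions were 1.20 and 1.97.

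**Figure D4:**
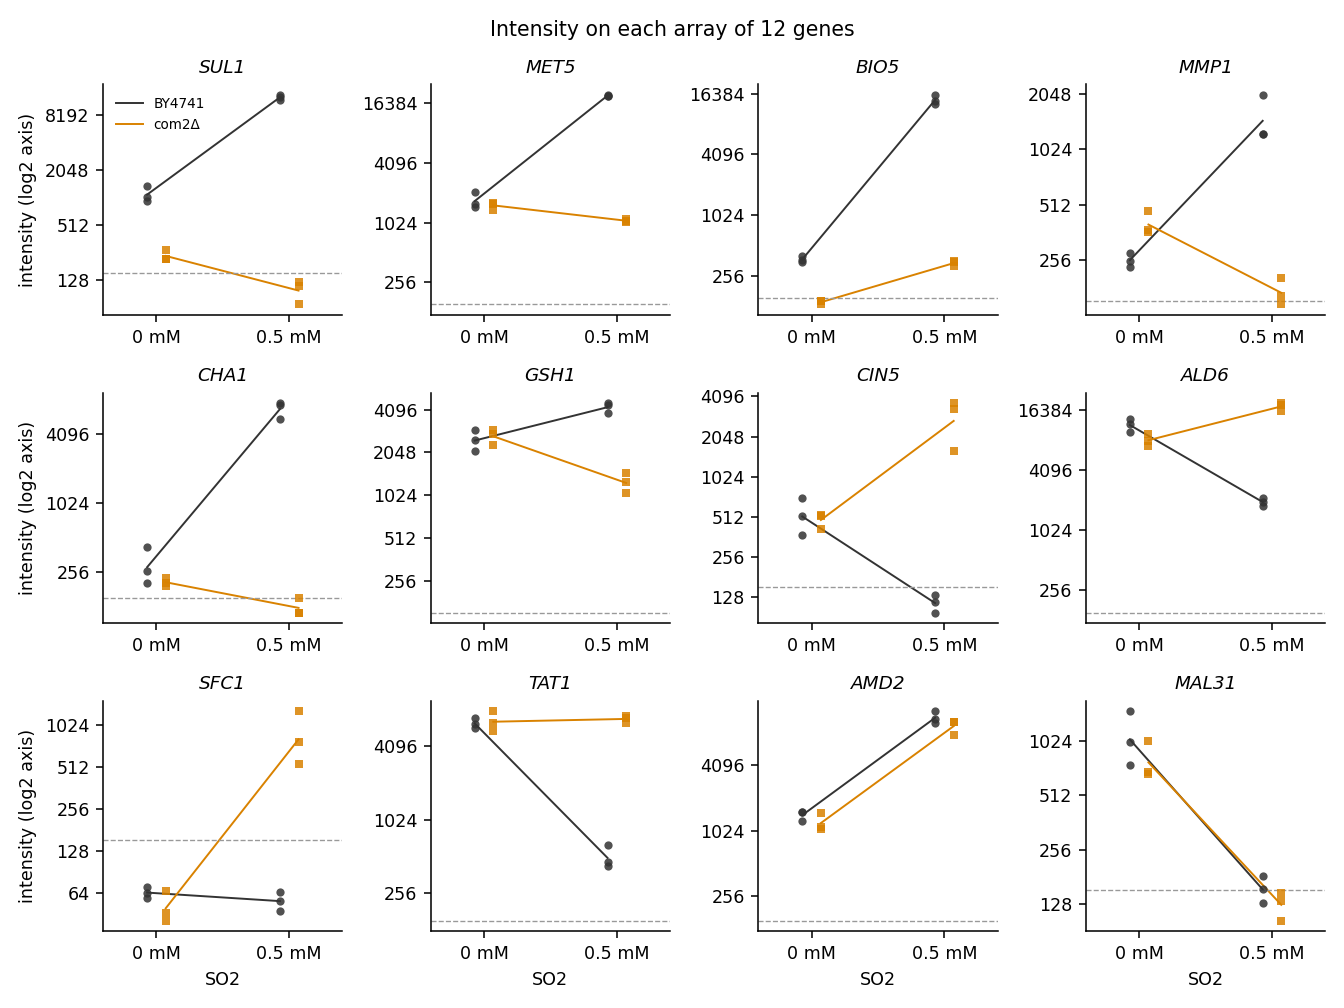
Intensity on each of the 12 arrays (log2 axis) without and with 0.5 mM SO2 for 12 genes, with BY4741 in black and *com2*Δ in orange, lines between the group means of log2 intensity, and a dashed line at the 152.5 of the deleted genes. In *SUL1* to *GSH1* the BY4741 arrays with SO2 are the highest, in *CIN5* to *TAT1* the *com2*Δ arrays with SO2 lie above those of BY4741, and in *AMD2* and *MAL31* the strains run together.

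Genes that fell in BY4741 alone made up most of the upward calls. *TAT1*, a permease for tyrosine and branched-chain amino acids, had 6975, 6253 and 5719 and then 463, 631 and 427 in BY4741, and 7900.1, 6335 and 5483 and then 6352, 7269.6 and 6963 in *com2*Δ, so that a log2 change of -3.66 in BY4741 stood beside 0.08 in the mutant (interaction 3.73, SE 0.23, adjusted p 2.0e-06). *CYC7*, the second isoform of cytochrome *c*, fell from 679, 1608 and 814 to 21.4, 24.1 and 19.2 in BY4741 and had 242, 691 and 1102 and then 509, 136 and 442 in *com2*Δ (interaction 4.62, SE 0.82, adjusted p 1.2e-03). Its replicates were spread widely, and because the BY4741 arrays with SO2 lay below 152.5, the floor at that value reduced the interaction to 1.85 (adjusted p 0.122), which is no call. *HSP30*, a stress protein of the plasma membrane, had 9771, 16025 and 10369 and then 1044, 1443 and 1198 in BY4741 and stayed between 6188 and 14132 in *com2*Δ (interaction 3.59).

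Of 24 general stress genes 13 had a called upward interaction and 0 a downward one, with a median of 1.22. *COM2* itself, which also belongs to this list, is left out of these numbers, because its value (1.30) lies between mutant intensities under 152.5 and is no measurement of a response. Its call was lost when 16 was added to each intensity (0.82) and with the floor (0.40). The median response of the 24 genes was -1.08 in BY4741 and -0.08 in *com2*Δ, and without SO2 their median strain difference was -0.42. *HSP42*, a small heat shock protein, had 2352, 3709 and 5189 and then 511, 361 and 782 in BY4741 against 1552, 3052 and 4342 and then 4322, 2432 and 3901 in *com2*Δ (interaction 3.10, SE 0.59, adjusted p 1.7e-03). *CTT1* rose in the mutant, from 959, 1163 and 1372 to 5123, 2454 and 5085, and went from 1281, 1300.5 and 1871 to 698, 584 and 970.2 in BY4741. *DDR2*, *HSP82* (a chaperone of the Hsp90 family), *HSP12* and *HSP104* had interactions of 2.35, 2.11, 1.65 and 1.53. The activators *MSN2* and *MSN4* were not called (-0.02 and 0.11).

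Upward calls were frequent in parts of central carbon metabolism. In the pentose phosphate pathway 7 of 11 genes were upward and 1 downward (median 1.25). The downward gene was *ZWF1*, glucose-6-phosphate dehydrogenase, which starts the pathway: 1341, 1284 and 2137 and then 3789.6, 5535 and 3421 in BY4741, and 1753, 1553 and 1283 and then 1379.7, 1146 and 1163 in *com2*Δ (interaction -1.74, SE 0.31, adjusted p 1.3e-03). The next enzymes went the other way. The 6-phosphogluconate dehydrogenase gene *GND2* had 712, 545 and 701 and then 152, 150.1 and 154 in BY4741, and 311, 237 and 303 and then 1758, 721 and 1286 in *com2*Δ (interaction 4.16, SE 0.37, adjusted p 2.0e-05). The *com2*Δ controls of *GND2* were below those of BY4741 (log2 difference -1.20, called). The major isoform gene *GND1* had an interaction of 1.68. *SOL4* and *SOL3*, for the lactonase step, had 3.07 and 1.06, and *NQM1*, *TKL2* and *RKI1* of the non-oxidative part had 2.17, 1.63 and 1.25. Of these 7 upward genes 4 remained in the table when the dimmest 25% of probe sets were left out.

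Some genes for the uptake and phosphorylation of hexoses fell less in *com2*Δ than in BY4741, and others did not differ by a call. *HXT2*, a glucose permease, had 13821, 14232 and 12665 and then 347, 593 and 459 in BY4741, and 11819, 10303 and 8949 and then 1696, 3339 and 2460.5 in *com2*Δ. Both strains fell, the mutant 6.96-fold less (interaction 2.80, SE 0.34, adjusted p 1.2e-04). Of 11 hexose transporter genes 5 were upward and 0 downward (3 upward without BY4741 SO2 replicate 1). These were *HXT2*, *HXT4*, *HXT10*, *HXT7*, nearly identical to *HXT6*, and *HXT14*, which rose in *com2*Δ, and the lowest value was that of *HXT13* (-0.99). The kinases *HXK1*, *GLK1* and *HXK2* had 2.26, 1.72 and 1.38. In the list of glycolysis and fermentation 5 of 21 genes were upward (23.8%, against 8.21% of all probe sets), and its median was 0.09. Trehalose and glycogen genes were upward in 4 of 17 (*GAC1*, *TSL1*, *GDB1* and *TPS2*, 1.20 to 1.58), which is 23.5% against 8.21% of all probe sets.

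Respiratory and gluconeogenic genes also held upward calls. Of 36 genes of the respiratory chain and ATP synthase 9 were upward and 33 had a value above 0 (median 0.57), a count that was 5 when *com2*Δ control replicate 1 was left out and 12 when the 4 farthest arrays were. *HAP4*, the activator subunit of the Hap complex that drives respiratory genes, fell in both strains, from 4743, 6432 and 3853 to 335, 334 and 429 in BY4741 and from 3258, 4476 and 4017 to 1824, 1503 and 1955 in *com2*Δ (interaction 2.60, SE 0.27, adjusted p 5.4e-05). The external NADH dehydrogenase *NDE1* had 2.85 and the Rieske protein gene *RIP1* 1.80. Of 30 genes of the citric acid cycle, glyoxylate cycle and gluconeogenesis 9 were upward (30.0%) and 1, *IDP2*, downward (3.33%, interaction -1.37). *MDH2*, the cytosolic malate dehydrogenase, had 2.87, the regulator *ADR1* 1.64 and *MDH1*, the mitochondrial malate dehydrogenase, 1.74. When the dimmest 25% of probe sets were left out, 4 of the 9 were counted.

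A smaller set rose in *com2*Δ alone. *SFC1*, the mitochondrial carrier that exchanges succinate for fumarate, had 69.8, 58.7 and 63.8 and then 55.8, 47.4 and 64.8 in BY4741 and 45.6, 40.1 and 65.8 in the *com2*Δ controls, all below 152.5, and 1282, 535 and 766 in *com2*Δ with SO2. The interaction of 4.24 (SE 0.39, adjusted p 2.3e-05) therefore rests on 1 group above background, and with the floor it was 2.40. The uncharacterized gene YER187W, with 1565, 639 and 969 in *com2*Δ with SO2 and 89.8 to 167 elsewhere, and *DAK2*, a dihydroxyacetone kinase, with 1050.3, 340.0 and 663 against 82.4 to 137, were of the same kind (3.39 and 3.18, or 2.74 and 2.02 with the floor). *YEF1*, an ATP-NADH kinase, was above background throughout, with 319.6 to 572 in the other groups and 2898, 1878 and 3022 in *com2*Δ with SO2 (interaction 2.94, SE 0.27, adjusted p 2.3e-05). The order of the replicates was counted among called probe sets only. Replicate 2 was the lowest of the 3 *com2*Δ arrays with SO2 in 48 of these 53 probe sets and in 332 of all 469 upward ones. Without it 74 probe sets rose in *com2*Δ alone with an upward interaction, and the dimmest 25% left out gave 15. *ROX1*, the repressor of hypoxic genes, rose in the mutant as well, from 791, 1129 and 1483 to 9629, 8515 and 8429.6, and had 586, 775 and 1941 and then 1879, 857 and 1777 in BY4741, where the groups overlapped (interaction 2.44, SE 0.59, adjusted p 6.7e-03).

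Only 22 downward probe sets fell in *com2*Δ without a called change in BY4741. This number was 12 without *com2*Δ SO2 replicate 1 and 48 without the 4 farthest arrays. *PUG1*, a plasma membrane protein for porphyrin transport, had 1588, 1318 and 1478 and then 1199, 2397 and 1555 in BY4741, which overlap, and 2143, 1633 and 1297 and then 483, 417 and 509 in *com2*Δ, which do not (interaction -2.00, SE 0.33, adjusted p 8.5e-04). *GAL1*, galactokinase, went from 341, 346 and 313 to 569, 757 and 657 in BY4741 and fell from 349.7, 325 and 222 to 116, 150.5 and 149 in *com2*Δ (interaction -2.07). The putative transporter *YHK8* had -1.98. *HAC1*, the transcription factor of the unfolded protein response, came close to this pattern with log2 changes of 0.60 and -0.96, neither called (interaction -1.55).

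Some changes called in both strains were of similar size. In 169 probe sets both strains passed the call in the same direction, 73 upward and 96 downward, and in 52 of them the 95% interval of the interaction lay within 1 log2 unit of 0. In 44 the interaction was called, and the others were not resolved, since their intervals reached beyond 1 log2 unit without a call. Among the falling genes, the maltose permease *MAL31* went from 1007, 1497 and 758 to 129, 184 and 154 in BY4741 and from 672, 1024 and 690.2 to 103, 147 and 134 in *com2*Δ (interaction 0.14, interval -0.64 to 0.92). *PMC1*, the vacuolar calcium pump, fell by 2.68 and 2.24 on the log2 scale (interval -0.04 to 0.92), and the hexose transporter *HXT5* by 2.27 and 2.29. *ISU1*, a scaffold for iron-sulfur clusters, rose by 1.85 and 1.74.

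Most lists of the ribosome and of protein turnover had few calls. The 33 proteasome genes and the 19 aminoacyl-tRNA synthetase genes had 0 called interactions, with medians of 0.47 and -0.27. Of 60 ribosome biogenesis genes 4 were upward (median 0.47, with 1 to 8 called over the settings that left out an array), of 45 cytosolic ribosomal protein genes 4 (median 0.23), and of 66 mitochondrial ribosomal protein genes 6 (median 0.49, with 16 called without the 4 farthest arrays). These are 6.67%, 8.89% and 9.09%, close to the 8.21% of all probe sets. *RPS22B* and *RPS9A*, each with a close paralogue that could share signal, stood out among ribosomal proteins with 2.65 and 2.41. In other lists the share lay above or below that of all probe sets. Of 25 genes of meiosis and sporulation 9 were upward (36.0%, median 0.65), but most were dim, and 4 were called with the floor at 152.5 and 1 with the dimmest 25% left out. In the iron regulon *SIT1*, *TIS11*, *HMX1* and *FIT2* were upward (2.03 to 2.06, 4 of 20 genes) and *FIT1* downward (-1.69), in the phosphate regulon the acid phosphatase genes *PHO3* (1.95) and *PHO5* (-1.62) went opposite ways, *PHO5* being higher in the *com2*Δ controls (log2 difference 2.45), and in the zinc regulon *ZAP1* and *INO1* were downward (-1.46 and -1.26).

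**Figure D5:**
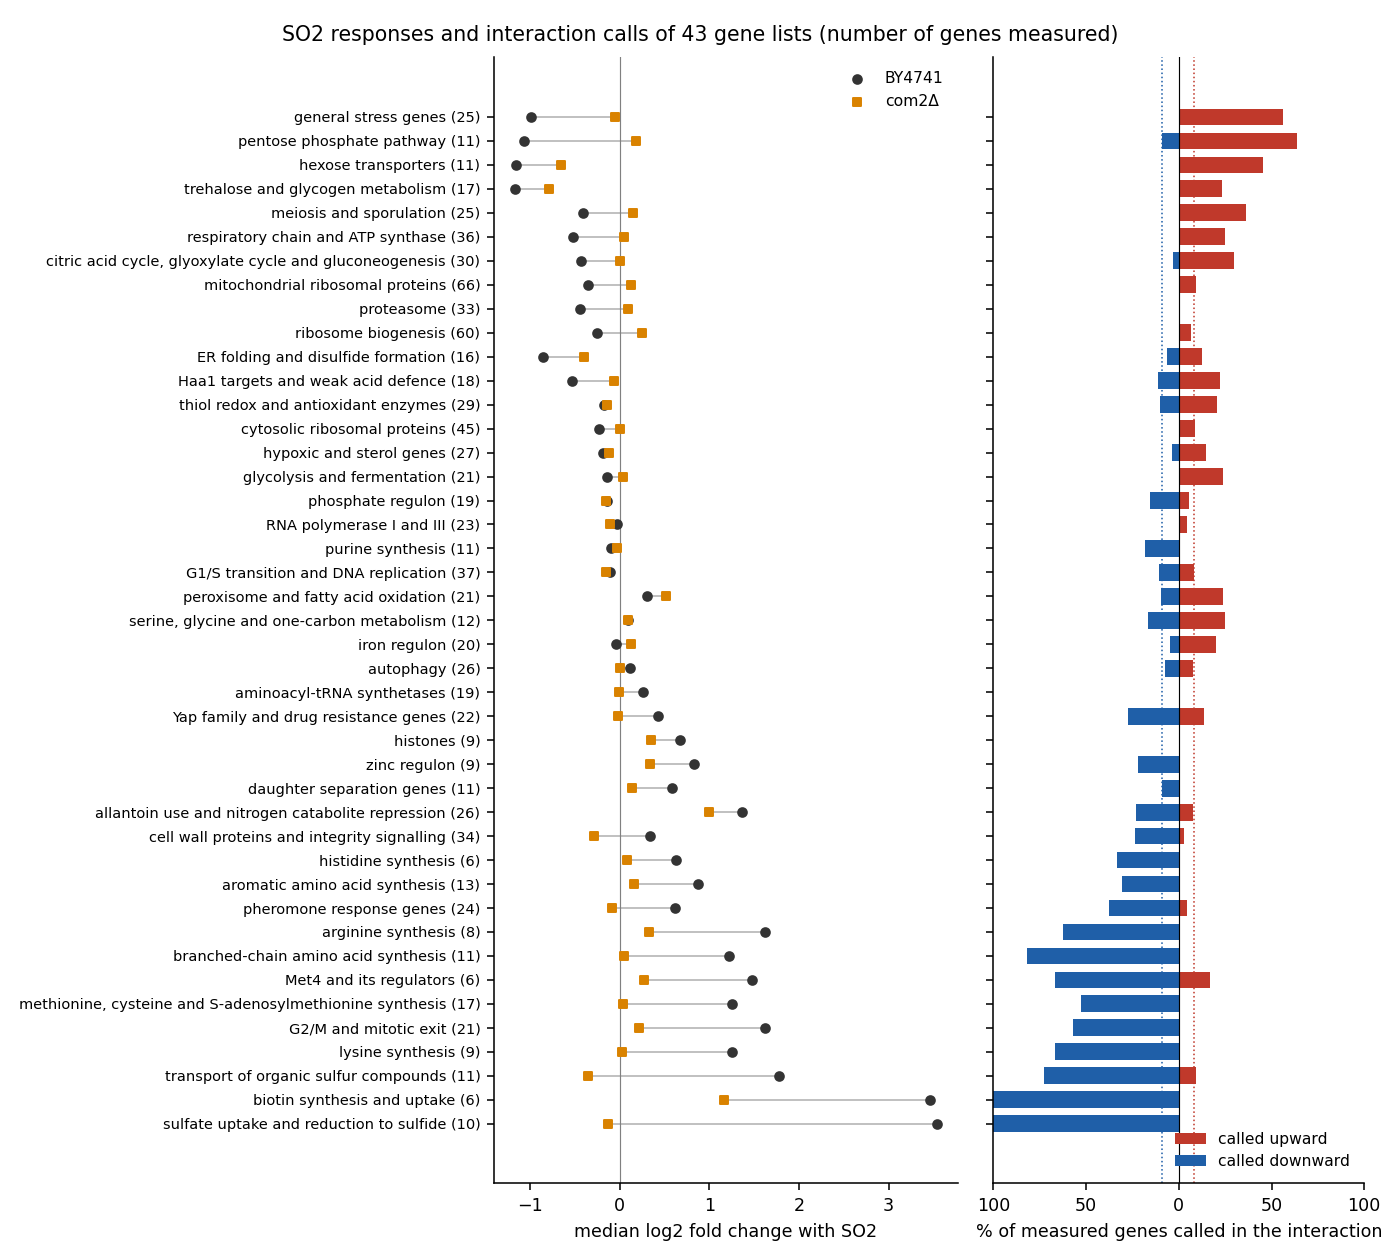
Left, median log2 fold change with SO2 in BY4741 (circles) and *com2*Δ (squares) of 43 gene lists, ordered by median interaction, and right, the percentage of measured genes called downward (blue, to the left) and upward (red, to the right), with dotted lines at the 9.24% and 8.21% of all probe sets. The sulfate and biotin lists reach 100% downward, and the general stress list (25 genes here, *COM2* included) and the pentose phosphate list are at the upward end.

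The 43 lists cover 905 genes, of which 117 were upward and 132 downward, so that 748 of the 997 called probe sets (75.0%) belong to none of them. No gene name was found for 27 upward and 15 downward probe sets in the annotation used. The genes next to the deletion had no called strain difference without SO2: *LCP5*, *VFA1*, *SAK1*, *RPS26B*, *PMD1* and *GLC7* had strain differences of -0.15 to 0.17, and none had a called interaction, *SAK1* coming nearest with -0.97. On the 15 chromosomes with over 100 measured genes, 14.2% to 21.5% of probe sets were called, and the median strain difference without SO2 was between -0.03 and 0.00.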

How the data were processed

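The values that the authors deposited are linear intensities, 1 for each probe set on each array, and none is below 1. Per their methods, arrays were normalized to an invariant set and expression indices were computed from perfect match probes in dChip. The submitters' processing notes name MAS5. Methods and labels differ in the number of arrays (the methods describe fewer) and in the labelling kit. Intensities were used as log2 values with no further scaling. Of 5716 probe sets 5498 name 1 gene and 218 none, and 12 symbols were updated through RefSeq identifiers.

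limma 3.58.1 in R 4.3.3 fitted 1 mean for each of the 4 groups to the 12 arrays, with 8 residual and 3.19 prior degrees of freedom and Benjamini-Hochberg adjustment over all probe sets. The p-values measure the spread between arrays labelled as biological replicates. The number of arrays limits the precision. The fit was tested on simulated data. Tables and plots were made with Python 3.11.15, pandas 2.3.3, numpy 2.4.6 and matplotlib 3.10.9.

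Named genes are the 15 highest and 15 lowest called interactions whose brightest group exceeds 152.5, the 4 largest of each pattern of single-strain calls, the 10 largest like responses, and members of 43 gene lists from general knowledge. Members and lists were chosen with earlier results of these data known. Alternatives were a block for the replicate number, the omission of each array or of the farthest in each group, quantile normalization, median centring, 16 added to intensities, a floor at 152.5, leaving out the 25% dimmest probe sets, 1 probe set per gene, trend and robust variances, array weights and other thresholds. Promoter motifs were not analysed here.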

Additional observations from a re-analysis of the deposited data

Results flagged for a closer look

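The SO2 response differed between the strains by a test of the difference itself in 997 probe sets. Among the named genes, 14 changed in opposite directions with both responses called. With the interaction as value, those that rose in BY4741 and fell in *com2*Δ were *SUL1* (-4.79), *MMP1* (-3.75), *ATG1* (-3.06) and *MUP3* (-2.93). Those that fell in BY4741 and rose in *com2*Δ were YER053C-A (5.21), *CIN5* (4.62), *FMP48* (4.26), *GND2* (4.16), *ALD6* (3.68), *SPR3* (3.65), *SDD1* (3.63), *IZH4* (3.58), YDR248C (3.29) and *GOR1* (3.20).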

How the results depend on the processing

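The 997 interaction calls (469 upward, 528 downward) ranged from 914 to 1101 when 1 array was left out (422 to 529 upward, 492 to 588 downward), and 740 were called each time. Without the 25% dimmest probe sets 658 were called (272 upward, 386 downward), of which 657 were among the 997. An adjusted p under 0.05 with no fold limit gave 2569 (1255 upward, 1314 downward), and limma's treat at 1.5-fold gave 551 (247 upward, 304 downward). The other alternatives gave 882 to 1424, with 1251 under array weights. Median centring gave 541 upward and 456 downward and so turned the larger direction, with 54.3% upward against 47.0%. It moved the median interaction to 0.08. With the replicate number as a block 995 were called (467 upward, 528 downward). Deviations of same-numbered arrays correlated between -0.31 and 0.47, with 7 of 18 pairs over 0.1. Differently numbered arrays were not compared, so these values do not settle whether the numbers pair the arrays. Of 58 named genes with a called interaction, 51 were called under every alternative that kept them in the table and 0 turned sign (without the dimmest probe sets 38 of all 71 named genes remained). The others were *CYC7*, YMR085W, *DCG1*, *FRM2*, YGR273C, *COM2* and *HIS3*. Counts of patterns moved more: without the farthest array of each group 406 probe sets had neither response called (264 with all arrays), 87 rose in *com2*Δ alone and 35 changed in opposite directions with a fall in BY4741, and without the dimmest probe sets these were 173, 15 and 8. The causes were not tested. Intensities near those of the deleted genes limit 116 upward and 39 downward calls, in which at least 1 group mean was under 152.5.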

Other observations

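Genes of fatty acid oxidation and peroxisomes had 5 upward and 2 downward interactions among 21 measured (23.8% and 9.52%, against 8.21% and 9.24% of all probe sets). The β-oxidation genes *SPS19*, *POX1*, *POT1* and *ECI1* were upward (2.93, 1.99, 1.61 and 1.23), while *PIP2*, a subunit of their oleate activator, was downward (-2.24). The upward number was 3 with the floor at 152.5 and 0 without the 25% dimmest probe sets. *POX1*, the acyl-CoA oxidase, had 322, 227 and 265 and then 189, 281 and 329 in BY4741, against 46.6 to 54.8 and then 299, 101 and 239 in *com2*Δ. Its mutant controls lay below 152.5, and with SO2 the strains overlapped. Among 27 hypoxic and sterol genes, *ROX1*, *ERG28*, *ANB1* and *AAC3* were upward (14.8%) and *TIR2* downward (3.70%). In the list of Yap targets and drug pumps 6 of 22 were downward (27.3%), among them *YAP5* (-2.02), *YOR1* (-1.85) and *FLR1* (-1.54), and 3 upward (13.6%), *CIN5*, *OYE3* and *FRM2*.

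The homothallic switching endonuclease gene *HO*, named after its values were seen, read 387, 504 and 502 in the BY4741 controls and 1639, 1548 and 1135 in the *com2*Δ controls, a difference present without SO2. With SO2 it read 1312, 926 and 740.5 in BY4741 and 1022, 1985 and 1156 in *com2*Δ, where the strains overlapped (interaction -1.17). *NCA3*, also named after its values were seen, and the lactate permease gene *JEN1* were lower in the *com2*Δ controls (log2 differences -1.56 and -1.16), with interactions of 2.81 and 1.07.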
